A study of Mus musculus with 6 samples.

Results

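The members are the immunoglobulin heavy chain V genes, taken as every gene whose symbol starts with Ighv: 143 genes of the 30733 symbols in the deposited tables, in 15 V families. RNA was sequenced from bone marrow cells of wild-type (WT) mice aged 12 months that carry the label hematopoietic stem cell (HSC). These cells had been sorted by surface MHC class II into a fraction with a high level (MHCII-hi) and a fraction with a low level (MHCII-lo), with 3 libraries each. How the cells were gated and how many mice were used, or whether each library had its own, is not given in the sources used here. The p-values therefore reflect the spread among the 6 libraries alone, which may be technical. Levels were taken as FPKM (fragments per kilobase, relative to library size), although no header names the unit. FPKM can be compared between genes, but less surely between V genes of nearly the same sequence, among which reads may be split.

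An antibody heavy chain gene is assembled in developing B cells, where 1 V segment is joined to a D and a J segment by the RAG recombinase. A V segment encodes most of the variable domain, including the first and second antigen-contact loops, and the V segments of a family resemble each other in sequence. Plasma cells, which live in bone marrow, transcribe their joined heavy chain gene at a very high level, while unjoined V segments can give low germline transcripts.

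Summed Ighv level was higher in MHCII-hi than in MHCII-lo, and the repertoire was differently composed. The sum was 3709, 3838 and 3813 FPKM in the MHCII-lo libraries and 4577, 4705 and 4697 FPKM in the MHCII-hi libraries. The groups did not overlap, and their means of 3787 ± 68.4 and 4660 ± 71.6 FPKM (SD, n = 3 each) stood at a ratio of 1.23. As a share of all summed FPKM, Ighv genes took 1.16 ± 0.0214% in MHCII-lo and 1.35 ± 0.0254% in MHCII-hi. Genes with a higher mean in MHCII-hi gained 1326 FPKM in all and genes with a lower mean lost 453 FPKM, a net difference of 873 FPKM. Ighv6-3 alone gained 153 FPKM, or 17.5% of the net difference. In bulk RNA, fewer cells of a type and less RNA per cell cannot be told apart.

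The labelled cell type and other cell types were checked by marker lists. Of 12 HSC markers, 6 lay below 1 FPKM in every library, among them Procr, Slamf1 and Fgd5, and the list summed to 42.1 to 45.5 FPKM in MHCII-lo and 42.8 to 45.3 FPKM in MHCII-hi. Of 15 B cell markers, 10 lay below 1 FPKM in every library, and the list summed to 15.6 to 18.1 and 18.8 to 19.8 FPKM. Of 12 plasma cell markers 11 were tested, with 6 higher and 1 lower, where 20.4% and 40.6% of all tested genes were, and the list summed to 327 to 332 FPKM in MHCII-lo and 401 to 405 FPKM in MHCII-hi. Most of that sum was the joining chain gene Jchain, at 181 ± 2.05 and 229 ± 5.78 FPKM, a ratio of means of 1.27. Pou2af1, Mzb1 and Derl3 were less abundant and had larger ratios, of 3.18, 2.47 and 1.85, and Xbp1 and Edem1 were also called higher. Txndc5 was lower, and Sdc1, Prdm1, Irf4 and Fkbp11 were not called. Each of the 12 neutrophil markers was called higher in MHCII-hi, and the list took 14.98% of summed FPKM against 2.60% in MHCII-lo. No marker of these lists was at 0 in all libraries. The part of plasma cell or neutrophil RNA in the Ighv differences was not tested.

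Every gene averaging 1 FPKM or more across the 6 libraries was compared with limma on log2(FPKM + 1). This passed 97 of the 143 Ighv genes. Of the 46 others, 17 were listed at 0 in every library. The lowest tested mean was 1.02 FPKM and the highest untested mean 0.757 FPKM. At an adjusted p under 0.05, 48 Ighv genes were higher in MHCII-hi and 25 were lower, with 24 not called. That is 75.3% of the tested Ighv genes, against 60.9% called among all 12037 tested genes. By direction, 49.5% of tested Ighv genes were higher, against 20.4% of all genes, and 25.8% were lower, against 40.6% of all genes. With library totals that leave out the neutrophil markers, an alternative chosen after seeing the data, Ighv genes numbered 53 higher and 21 lower, against 48 and 25 as deposited. The 3 libraries of one fraction lay wholly above those of the other for 73 Ighv genes, the same 73 that were called, beside 67.6% of all tested genes. At least 2-fold by means and called were 20 higher Ighv genes (20.6%, against 4.87% of all genes) and 9 lower ones (9.28%, against 3.01%). The median log2 fold change was 0.19 for tested Ighv genes (interquartile range −0.24 to 0.75) and −0.12 for all tested genes (−0.31 to 0.11).

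A few of these calls rest on a value near 0 in one fraction. Mean levels in MHCII-lo were under 1 FPKM for Ighv1-37, Ighv1-49, Ighv11-1, Ighv3-3 and Ighv6-4, and in MHCII-hi for Ighv7-4, so these 6 passed the filter through one fraction only. Among the 91 tested genes with both means at or above 1 FPKM, 43 were higher and 24 lower, of which 15 and 8 differed at least 2-fold by means. Across 15 other settings of the analysis, 39 of the higher and 21 of the lower calls held in every setting in which the gene was tested, and no called gene was called in the opposite direction.

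**Figure D1:**
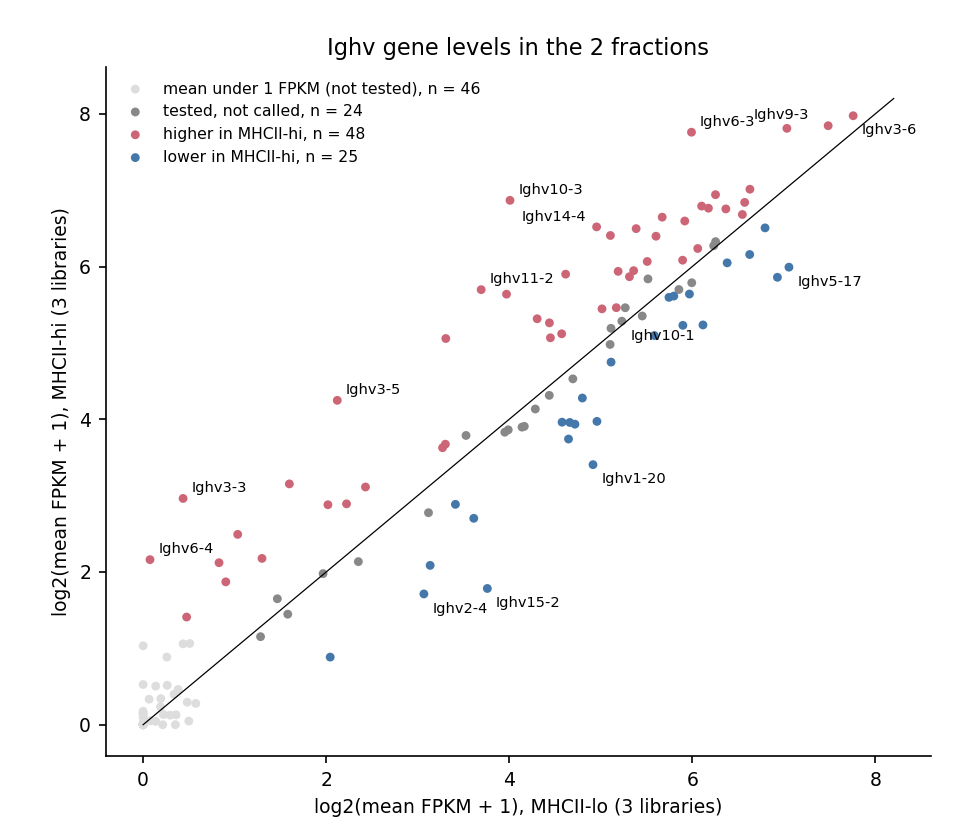
Mean level of each of the 143 Ighv genes in MHCII-lo (x axis) and MHCII-hi (y axis) as log2(mean FPKM + 1) over 3 libraries, with the line of equal levels. Points are coloured by the limma call, and Ighv10-3 lies farthest above the line, at 15.1 FPKM against 116 FPKM.

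The family with the largest ratio among those summing to at least 100 FPKM in MHCII-hi was Ighv6, with Ighv10 at nearly the same ratio. Ighv6 genes summed to 99.2, 105 and 106 FPKM in the MHCII-lo libraries and to 315, 309.6 and 301 FPKM in the MHCII-hi libraries. Every MHCII-hi library lay above every MHCII-lo library, with means of 104 ± 3.86 and 308 ± 7.14 FPKM, a ratio of 2.98. The family held 2.73% of summed Ighv level in MHCII-lo against 6.62% in MHCII-hi. Its 2 genes with both means at or above 1 FPKM, Ighv6-3 and Ighv6-6, were called higher, and so was Ighv6-4, which passed the filter through MHCII-hi only.

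Ighv6-3 carried most of the Ighv6 level. It was at 60.5, 65.1 and 62.1 FPKM in MHCII-lo and at 223, 215 and 209 FPKM in MHCII-hi. The fractions stood far apart, and the gene moved from rank 21 to rank 4 among Ighv genes. The log2 fold change was 1.77 (SE 0.0357, limma adjusted p = 7.60e-08). Ighv6-6 was also higher, at 40.8 ± 2.95 FPKM in MHCII-lo and 89.3 ± 1.10 FPKM in MHCII-hi (limma adjusted p = 2.77e-06). Ighv6-4 was listed at 0, 0.16 and 0 FPKM in MHCII-lo and was at 3.56, 4.36 and 2.50 FPKM in MHCII-hi (limma adjusted p = 5.21e-05). Ighv6-3 lies at chr12:114391712-114392169 (GRCm38, minus strand, as for all genes printed here). The last 294 bases of its annotated transcript are shown because it had the largest gain of any Ighv gene. In capitals is the Tyr-Tyr-Cys codon run near the 3′ end, whose cysteine marks the start of the third antigen-contact loop, so that the joined D and J segments follow a few bases after it.
Ighv6-3: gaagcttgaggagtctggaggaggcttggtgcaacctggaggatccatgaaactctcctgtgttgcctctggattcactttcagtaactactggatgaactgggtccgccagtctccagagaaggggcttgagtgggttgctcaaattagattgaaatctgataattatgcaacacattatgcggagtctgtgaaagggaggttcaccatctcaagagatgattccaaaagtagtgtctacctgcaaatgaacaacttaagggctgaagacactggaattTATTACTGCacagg

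Ighv10 had 2 tested genes, of which one had the largest log2 fold change of any tested Ighv gene and the other overlapped between the fractions. Ighv10-3 (chr12:114523441-114523905) was at 16.3, 13.8 and 15.2 FPKM in MHCII-lo and at 117, 114 and 116 FPKM in MHCII-hi. All 3 MHCII-hi libraries were over 100 FPKM and all MHCII-lo libraries under 20 FPKM. The ratio of means was 7.67 and the log2 fold change 2.86 (SE 0.0558, limma adjusted p = 6.70e-08), and the gene went from rank 65 to rank 7. Ighv10-1 was at 39.1, 35.5 and 35.1 FPKM in MHCII-lo and at 36.0, 40.4 and 37.5 FPKM in MHCII-hi. These ranges overlapped, and the log2 fold change of 0.05 (SE 0.0565) had a limma adjusted p of 0.440. It was called higher in 2 of 15 other settings, with a log2 fold change of 0.17 under median-ratio scaling (limma adjusted p = 0.0395) and with totals that leave out the neutrophil markers (0.0408), against 2.86 for Ighv10-3 as deposited. Ighv10-1, like Ighv6-6, Ighv11-1 and Ighv14-1, was chosen after its values were seen. The share of Ighv10-3 in its family was therefore 29.2 ± 1.17% in MHCII-lo and 75.3 ± 1.34% in MHCII-hi.

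The Ighv10 pair is printed because its 2 genes are near copies with unlike values. Their annotated transcripts differ at 12 of 359 aligned bases, and within the last 294 bases at the 10 positions in capitals. Fragments that cover none of these positions could be assigned to either gene.
Ighv10-1: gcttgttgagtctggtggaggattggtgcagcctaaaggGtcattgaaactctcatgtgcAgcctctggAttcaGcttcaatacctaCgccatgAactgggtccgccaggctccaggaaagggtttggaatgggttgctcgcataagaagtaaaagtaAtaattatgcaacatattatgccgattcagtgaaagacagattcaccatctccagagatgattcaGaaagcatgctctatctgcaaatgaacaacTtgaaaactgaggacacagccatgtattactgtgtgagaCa
Ighv10-3: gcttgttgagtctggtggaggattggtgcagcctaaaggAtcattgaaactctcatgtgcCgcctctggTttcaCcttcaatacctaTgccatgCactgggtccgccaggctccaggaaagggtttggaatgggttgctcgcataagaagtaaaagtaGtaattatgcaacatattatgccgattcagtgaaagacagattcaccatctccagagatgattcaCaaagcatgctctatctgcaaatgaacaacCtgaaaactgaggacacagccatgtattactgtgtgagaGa

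Ighv11, a family whose member Ighv11-2 is known from antibodies of B-1 cells to phosphatidylcholine, was low in MHCII-lo and higher in MHCII-hi. Its sum was 12.1, 12.0 and 14.0 FPKM in MHCII-lo and 55.1, 51.3 and 56.3 FPKM in MHCII-hi, a ratio of means of 4.26. The fractions did not overlap. Nearly all of this was Ighv11-2 (log2 fold change 2.01, SE 0.0645, limma adjusted p = 6.05e-07), which moved from rank 70 to rank 36. Ighv11-1 differs from it at 4 of 353 aligned bases and was at 0.777 ± 0.673 and 3.35 ± 0.342 FPKM (limma adjusted p = 0.00609), so the split between these genes is uncertain. Ighv11-1 also passed the filter through MHCII-hi only. Ighv12-3, the other V gene known for this specificity, was at 4.88, 4.49 and 3.79 FPKM in MHCII-lo and 8.67, 5.99 and 8.29 FPKM in MHCII-hi. Its MHCII-hi libraries were all higher, with a log2 fold change of 0.67 (SE 0.136, limma adjusted p = 0.00466).

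Ighv14 and Ighv3 also held genes that were higher in MHCII-hi. Ighv14 summed to 189 ± 9.65 FPKM in MHCII-lo against 310 ± 13.7 FPKM in MHCII-hi. Of its 4 tested genes 3 were higher, beside 49.5% of all tested Ighv genes. Ighv14-4 was at 32.8, 27.0 and 30.2 FPKM in MHCII-lo and 89.9, 88.6 and 93.7 FPKM in MHCII-hi (log2 fold change 1.57, SE 0.0665, limma adjusted p = 2.26e-06). Ighv14-2, the most abundant of the family, differed less, at 81.5 ± 9.75 and 107 ± 8.57 FPKM (limma adjusted p = 0.0104). Ighv14-1 was not called, at 18.5 ± 0.668 and 16.6 ± 2.43 FPKM. The 4 genes are 95.2 to 97.4% identical, so reads may have been split among them.

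In Ighv3 the most abundant gene and the low genes differed in size of change. Ighv3-6 was the most abundant Ighv gene in all 6 libraries, at 216, 221 and 209 FPKM in MHCII-lo and 246, 255 and 251 FPKM in MHCII-hi. The groups lay apart by a small step (log2 fold change 0.22, SE 0.0256, limma adjusted p = 0.000354). Ighv3-5 was at 3.53, 3.44 and 3.08 FPKM against 15.9, 17.2 and 20.9 FPKM (log2 fold change 2.12), and Ighv3-1 at 14.3, 13.3 and 16.4 FPKM against 44.5, 52.0 and 49.9 FPKM (log2 fold change 1.67). Ighv3-3 was at 0.28, 0.30 and 0.48 FPKM in MHCII-lo and 5.50, 6.07 and 8.82 FPKM in MHCII-hi. All 3 were called, with MHCII-hi libraries several times above MHCII-lo libraries, but Ighv3-3 passed the filter through MHCII-hi only. Ighv3-8 went the other way, from 58.6 ± 5.18 to 36.5 ± 1.38 FPKM (limma adjusted p = 0.000124); it was chosen after its values were seen. The share of Ighv3 in summed Ighv level was 7.78% in both fractions.

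**Figure D2:**
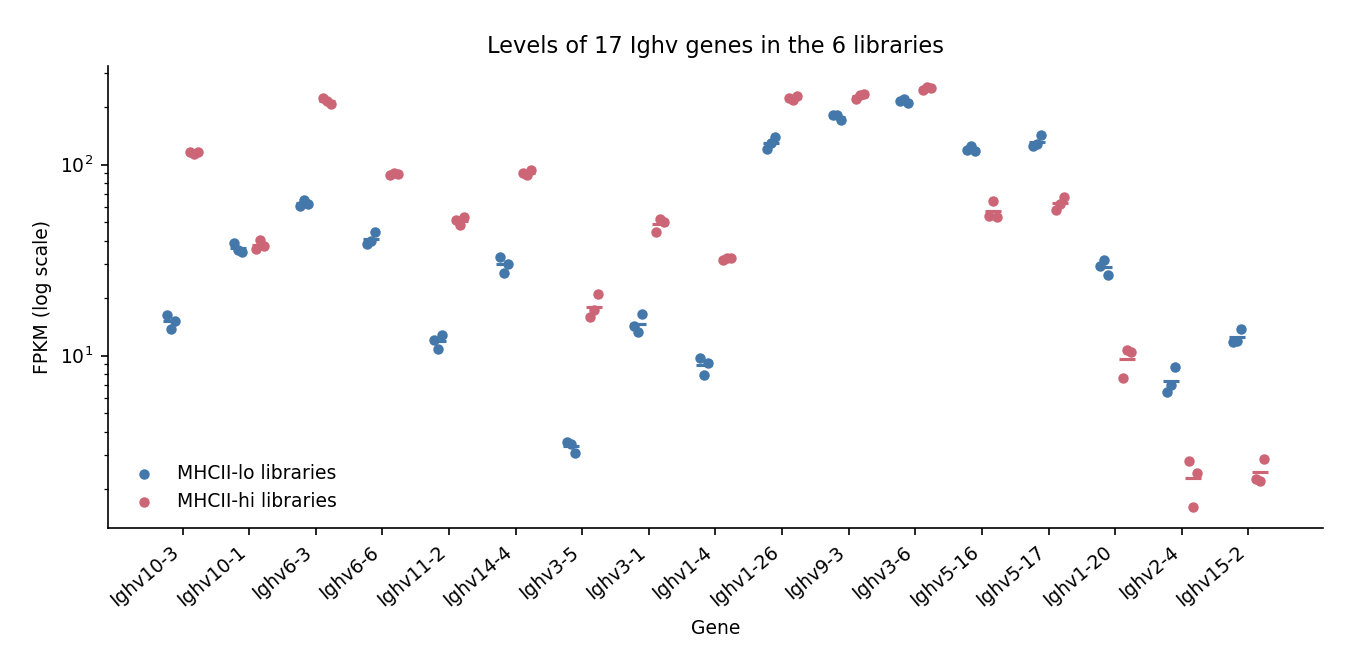
FPKM (log scale) of 17 Ighv genes in each of the 6 libraries, points for libraries and bars for group means of 3. Ighv10-3, Ighv6-3 and Ighv11-2 lie higher in every MHCII-hi library, Ighv10-1 overlaps, and Ighv5-16, Ighv5-17, Ighv1-20, Ighv2-4 and Ighv15-2 lie lower.

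Ighv5 was the one family of at least 100 FPKM with a lower sum in MHCII-hi. It summed to 397, 419 and 422 FPKM in MHCII-lo and to 264, 273 and 293 FPKM in MHCII-hi. Each MHCII-hi library was below each MHCII-lo library, and the share of summed Ighv level was 10.9 ± 0.191% in MHCII-lo but 5.94 ± 0.254% in MHCII-hi. Of its 9 tested genes, 5 were lower, 1 was higher and 3 were not called, while 25.8% of all tested Ighv genes were lower and 49.5% higher.

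Most of the Ighv5 difference lay in 2 genes, Ighv5-16 and Ighv5-17, which together had 253 FPKM in MHCII-lo and 119.7 FPKM in MHCII-hi. Ighv5-17 was at 125, 128 and 143 FPKM in MHCII-lo and 58.1, 62.3 and 67.5 FPKM in MHCII-hi (log2 fold change −1.06, SE 0.0684, limma adjusted p = 1.82e-05). It had the largest loss of any Ighv gene and went from rank 3 to rank 27. Ighv5-16 was at 119, 126 and 118 FPKM in MHCII-lo and 53.5, 64.1 and 53.5 FPKM in MHCII-hi (log2 fold change −1.08, SE 0.0714, limma adjusted p = 2.13e-05). It went from rank 5 to rank 32. Ighv5-9 and Ighv5-15 were lower by similar factors, with means of 24.1 and 12.4 FPKM and of 7.79 and 3.25 FPKM. Ighv5-4 was the higher one, at 38.8 ± 4.80 and 57.3 ± 4.65 FPKM (limma adjusted p = 0.00205). Ighv5-2, also called VH81X, is often used by early B cell precursors. Of the members not annotated as pseudogenes, it lies nearest the D segments. Ighv5-2 was at 1.43 ± 0.619 and 1.22 ± 0.877 FPKM and was not called. Ighv5-4 and Ighv5-2 were chosen after their values were seen.

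The lowest log2 fold change of a tested Ighv gene was that of Ighv15-2 (chr12:114564578-114565012), the only Ighv15 gene. It was at 11.8, 12.0 and 13.9 FPKM in MHCII-lo and 2.26, 2.19 and 2.88 FPKM in MHCII-hi. The MHCII-lo mean was 5.14 times the MHCII-hi mean (log2 fold change −1.98, SE 0.0936, limma adjusted p = 3.74e-06). Its nearest relative among Ighv genes, Ighv1-9, is 73.5% identical. It is printed as the member with the largest fall and with no near copy, with the same codon run in capitals.
Ighv15-2: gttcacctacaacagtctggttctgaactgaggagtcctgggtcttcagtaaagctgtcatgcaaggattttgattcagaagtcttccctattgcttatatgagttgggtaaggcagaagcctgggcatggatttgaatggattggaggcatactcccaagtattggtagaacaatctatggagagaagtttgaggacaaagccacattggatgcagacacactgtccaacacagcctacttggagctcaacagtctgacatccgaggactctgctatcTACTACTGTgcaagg

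Ighv13-2, the only Ighv13 gene, was also lower, at 9.64 ± 1.83 and 6.39 ± 0.486 FPKM (limma adjusted p = 0.0107). Ighv7-1, known from the T15 antibodies to phosphorylcholine, was at 24.8, 33.4 and 22.2 FPKM in MHCII-lo and 18.4, 18.9 and 17.9 FPKM in MHCII-hi. Its limma adjusted p was 0.0152, and it was chosen after its values were seen. Ighv7-4, which passed the filter through MHCII-lo only, was lower too, at 3.12 ± 1.28 and 0.847 ± 0.577 FPKM. Ighv7-3, the most abundant of the family, was not called at 44.8 ± 6.03 and 56.2 ± 7.24 FPKM. The sum of Ighv7 overlapped between the fractions. Ighv4-1 overlapped as well, at 24.9 ± 1.38 and 22.1 ± 1.92 FPKM.

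Ighv2 held changes in both directions and a near-identical pair with unlike values. Ighv2-4 was at 6.43, 7.04 and 8.68 FPKM in MHCII-lo and 2.80, 1.61 and 2.42 FPKM in MHCII-hi (log2 fold change −1.36, SE 0.157, limma adjusted p = 0.000313). Ighv2-2 was at 41.9, 41.0 and 45.5 FPKM and 41.4, 38.3 and 39.9 FPKM, and was not called. Ighv2-4 thus differed between fractions while its much more abundant near copy overlapped. The stretches below differ at the 6 bases in capitals, and over 350 aligned bases the transcripts differ at 8.
Ighv2-2: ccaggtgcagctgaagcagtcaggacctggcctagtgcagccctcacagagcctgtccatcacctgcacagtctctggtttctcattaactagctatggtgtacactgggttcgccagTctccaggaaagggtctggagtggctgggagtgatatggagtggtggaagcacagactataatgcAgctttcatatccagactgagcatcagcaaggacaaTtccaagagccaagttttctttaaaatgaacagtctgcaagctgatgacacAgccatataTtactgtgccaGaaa
Ighv2-4: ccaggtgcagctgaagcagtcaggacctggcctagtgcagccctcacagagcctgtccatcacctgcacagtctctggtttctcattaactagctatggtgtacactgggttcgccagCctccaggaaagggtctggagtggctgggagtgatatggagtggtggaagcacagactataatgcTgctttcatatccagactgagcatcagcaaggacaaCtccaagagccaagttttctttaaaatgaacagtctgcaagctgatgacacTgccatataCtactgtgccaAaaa

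Ighv2-5, which also differs from Ighv2-4 at 8 bases, was lower at 11.2 ± 2.88 and 5.51 ± 0.701 FPKM. Ighv2-6-8 was higher, at 2.02, 2.45 and 1.61 FPKM against 6.85, 8.29 and 8.55 FPKM (log2 fold change 1.56). The family sum differed little, at 170 ± 3.82 and 181 ± 13.5 FPKM.

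Ighv1, the large J558 family, held 74 of the 143 genes and 52.0% of the level in MHCII-lo and 50.8% in MHCII-hi. It summed to 1919, 1989 and 1996 FPKM in MHCII-lo and 2325, 2405 and 2365 FPKM in MHCII-hi, without overlap. Of 49 tested genes, 26 were higher and 11 lower, where 49.5% and 25.8% of all tested Ighv genes were. A further 12 were not called, and the median log2 fold change was 0.19. The range ran from −1.52 for Ighv1-20 to 1.75 for Ighv1-4, so single genes of the family differed far more than its sum.

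Among the abundant Ighv1 genes, Ighv1-26 was at 121, 129 and 140 FPKM in MHCII-lo and 223, 218 and 229 FPKM in MHCII-hi (log2 fold change 0.78, SE 0.0513, limma adjusted p = 2.06e-05). It had the highest family level in both fractions. Ighv1-53 and Ighv1-64 entered the 10 most abundant in MHCII-hi, each with a log2 fold change of 0.69. Ighv1-59 left it, with means of 97.8 ± 4.33 and 70.4 ± 4.24 FPKM (limma adjusted p = 0.000229). Ighv1-82, Ighv1-9 and Ighv1-80 differed by small steps, with log2 fold changes of 0.38, 0.27 and 0.13, and the call of Ighv1-9 was lost without MHCII-lo replicate 1 (limma adjusted p = 0.0527).

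The largest rise and fall in Ighv1 on the log2 scale were those of Ighv1-4 and Ighv1-20. Ighv1-4 was at 9.66, 7.93 and 9.10 FPKM in MHCII-lo and 31.8, 32.6 and 32.5 FPKM in MHCII-hi (limma adjusted p = 1.17e-06). Ighv1-20 was at 29.5, 31.6 and 26.4 FPKM in MHCII-lo and 7.66, 10.7 and 10.4 FPKM in MHCII-hi (limma adjusted p = 5.83e-05). Ighv1-63 was at 30.1 ± 0.293 and 14.7 ± 1.10 FPKM (limma adjusted p = 6.21e-06). In each of the 3, no library of one fraction reached the range of the other. Ighv1-72, the V186.2 gene of antibodies to the hapten NP, differed little, at 65.7 ± 4.74 and 74.4 ± 2.94 FPKM, and its call (limma adjusted p = 0.0275) was lost in 5 of 15 other settings; it was chosen after its values were seen.

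The families Ighv8 and Ighv9 showed smaller differences. Ighv9-3, the second most abundant Ighv gene in both fractions, was at 181, 183 and 171 FPKM in MHCII-lo and 221, 232 and 233 FPKM in MHCII-hi (log2 fold change 0.36, SE 0.0335, limma adjusted p = 0.000112). Ighv8-8 was higher at 71.3 ± 5.58 and 107.7 ± 2.91 FPKM (limma adjusted p = 0.000125). Ighv8-12 was called lower at 110.0 ± 1.95 and 89.9 ± 12.7 FPKM (limma adjusted p = 0.0266), but this call was lost in 7 of 15 other settings, with limma adjusted p up to 0.146. Among these 7 were the runs without MHCII-hi replicate 2 and without any one MHCII-lo library.

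**Figure D3:**
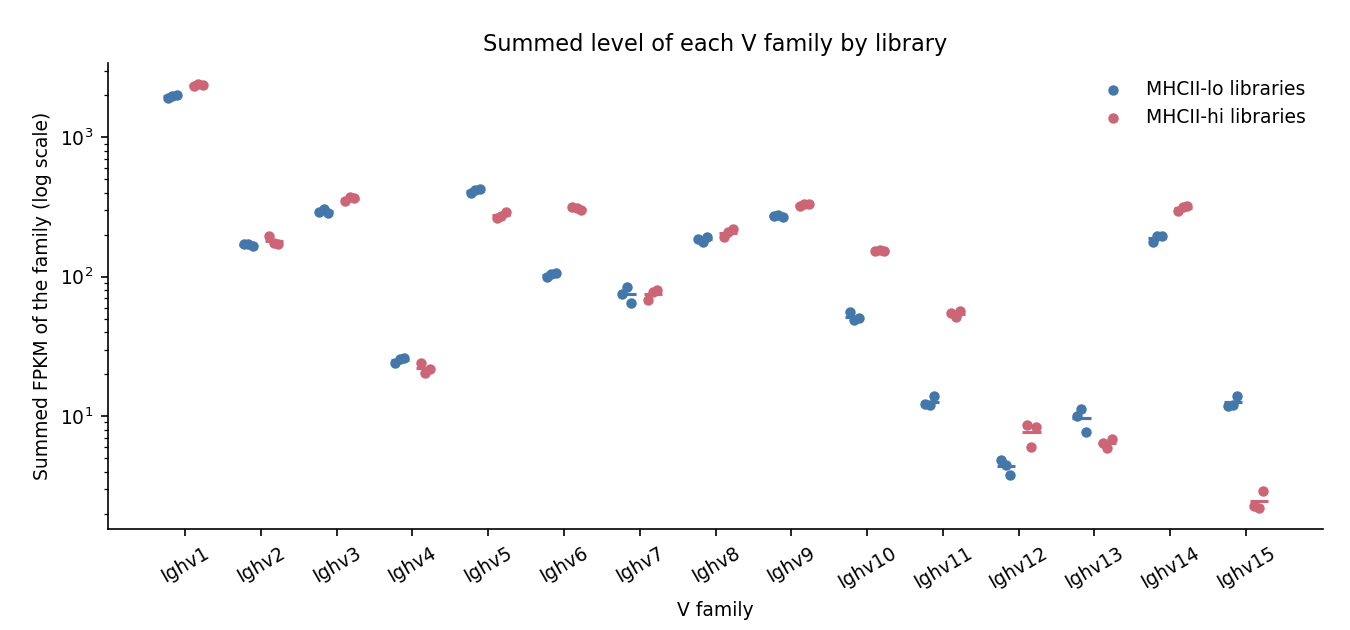
Summed FPKM of each V family (log scale) in each of the 6 libraries, with bars for group means of 3. Ighv6, Ighv10 and Ighv11 lie higher and Ighv5 and Ighv15 lower in MHCII-hi, and Ighv7 overlaps.

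Family ratios rested on single genes to different degrees. On the log2 scale the Ighv10 ratio of 1.57 became 0.06 without Ighv10-3, while the Ighv6 ratio of 1.57 became 1.18 without Ighv6-3 and the Ighv5 ratio of −0.58 became −0.39 without Ighv5-17. Ighv6 and Ighv5 therefore kept their direction without their most abundant gene. In Ighv5 this left Ighv5-16, which fell by a like factor (log2 fold change −1.08). Ighv5-16 and Ighv5-17 together had 253 FPKM of the family's 413 FPKM in MHCII-lo and 119.7 of 277 FPKM in MHCII-hi. Nearly all of the Ighv5 difference thus lay in these genes, and the sum of the others differed little.

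Genes of nearly the same sequence did not always share a call. Of the 143 members, 62 have another member at 95% identity or more. The tested ones form 40 such pairs among 46 genes, of which 19 pairs (47.5%) had the same call, 6 (15%) had opposite calls and 15 held at least 1 gene that was not called. Over all 4656 pairs of tested Ighv genes, 30.7% had the same call and 25.8% opposite calls. An opposite pair whose calls held in every setting was Ighv1-66, at 18.8 ± 3.25 and 38.8 ± 5.91 FPKM, and Ighv1-84, at 22.9 ± 3.20 and 14.6 ± 1.30 FPKM, which differ at 15 of 351 bases. It was chosen after its values were seen. How reads that fit several V genes were counted is not given in the sources used here, so the level of each gene in such a pair is uncertain.

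The repertoire was slightly less even in MHCII-hi. The effective number of genes, the exponential of the Shannon entropy of the gene shares, was 62.6, 62.3 and 62.4 in MHCII-lo and 60.3, 60.5 and 60.5 in MHCII-hi. The libraries of the fractions did not overlap, but the difference was only about 2 genes. Pielou evenness, which is 1 for equal shares of the detected genes, was 0.882 and 0.869. The inverse Simpson number, which weights abundant genes more, was 48.3 ± 0.174 and 45.6 ± 0.221. With members of at least 95% identity joined into 102 units, an alternative chosen after seeing the data, the effective number was 36.3 ± 0.355 and 34.2 ± 0.298.

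Evenness was lower in MHCII-hi also without Ighv3-6, with effective numbers of 63.5 ± 0.275 and 61.2 ± 0.130. Ighv3-6 took 5.69 ± 0.172% of summed Ighv level in MHCII-lo and 5.38 ± 0.0377% in MHCII-hi, while the 10 most abundant genes of each library took 33.5 ± 0.164% and 34.7 ± 0.262%. Reaching 50% of the level took 19 genes in each MHCII-lo library and 18 in each MHCII-hi library. More genes were nonetheless present at a given level in MHCII-hi, with 90 to 93 and 97 to 98 genes at 1 FPKM or more, and 7 to 8 and 11 to 13 genes at 100 FPKM or more. Of the 10 most abundant genes by mean, 5 were common to both fractions, namely Ighv3-6, Ighv9-3, Ighv1-26, Ighv1-82 and Ighv1-9.

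**Figure D4:**
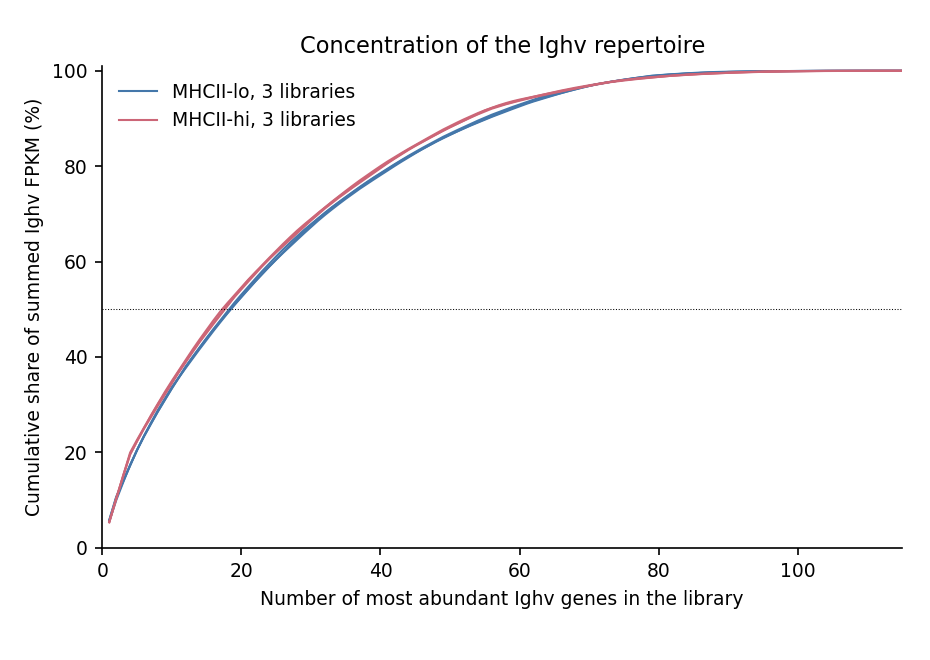
Cumulative share of summed Ighv FPKM (%) against the number of most abundant genes counted, 1 line per library, with a dotted line at 50%. MHCII-hi lines reach it at 18 genes and MHCII-lo lines at 19.

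Libraries of one fraction had nearly the same gene shares. The part of summed Ighv level that would have to move to turn one library's shares into another's was 3.69 to 5.27% for pairs of MHCII-lo libraries, 3.64 to 4.48% for pairs of MHCII-hi libraries and 18.8 to 19.9% across fractions. Within a fraction, the coefficient of variation of a gene across libraries was smaller at higher levels, with medians going from 31.2% (MHCII-lo) and 21.9% (MHCII-hi) for tested genes with a mean under 10 FPKM to 6.14% and 5.35% at 50 FPKM or more. Differences of low genes are thus the less precise ones.

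Position along the locus was described by splitting the tested genes into 3 groups by distance from Ighj1. In the nearest group (149 to 793 kb, 32 genes) 13 were higher and 10 lower, in the middle group (824 to 1507 kb, 32 genes) 18 and 5, and in the farthest group (1516 to 2570.2 kb, 33 genes) 17 and 10. Of all tested Ighv genes 49.5% were higher and 25.8% lower, against 20.4% and 40.6% of all tested genes. The middle group, which holds Ighv6, Ighv10 and the start of Ighv1, took 29.6 ± 0.547% of summed Ighv level in MHCII-lo and 36.5 ± 0.235% in MHCII-hi. Over the 97 genes, Spearman's rho between log2 fold change and distance was 0.0498, a description over genes that share libraries and families. The annotation calls 32 members pseudogenes, which cannot encode a heavy chain. They took 0.157% of summed Ighv level in MHCII-lo against 0.246% in MHCII-hi, and 1 was tested, Ighv1-41, at 3.05 ± 0.468 and 6.36 ± 1.16 FPKM (limma adjusted p = 0.00122); it was chosen after its values were seen.

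**Figure D5:**
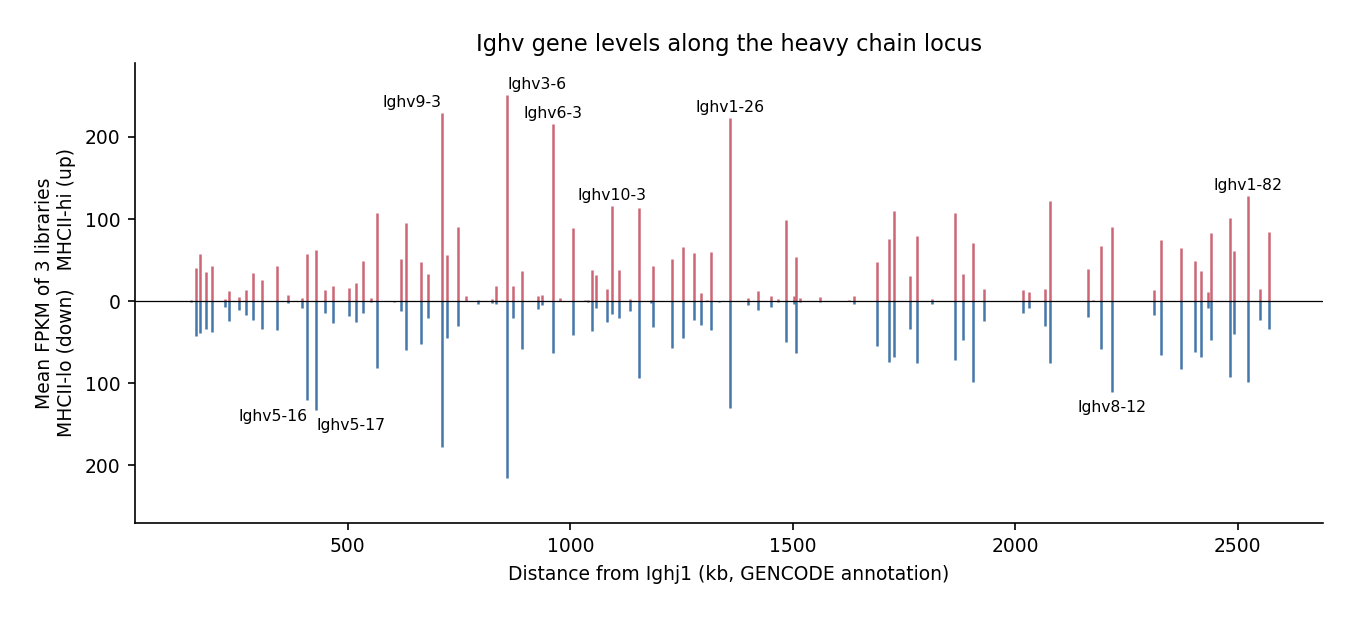
Mean FPKM of each Ighv gene against its distance from Ighj1 (kb), with MHCII-hi drawn upward and MHCII-lo downward from 0. Ighv6-3 and Ighv10-3 are the tall lines with short counterparts, at 216 and 116 FPKM upward and 62.6 and 15.1 FPKM downward.

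Other heavy chain genes moved beside the V genes. Of 13 constant region, J segment and joining chain genes, 12 were tested. Of these, 8 were higher and 3 lower, beside 20.4% and 40.6% of all tested genes. The most abundant, the constant gene Ighg2c, was at 616 ± 13.1 and 772.7 ± 13.04 FPKM. Ighm, the constant gene of IgM, was at 106, 105 and 109.9 FPKM in MHCII-lo and 354, 349 and 345 FPKM in MHCII-hi (limma adjusted p = 1.32e-08). Ighg1, the constant gene of IgG1, went the other way, at 523, 533 and 531 FPKM in MHCII-lo and 157, 163 and 160.4 FPKM in MHCII-hi (limma adjusted p = 5.78e-09). The constant genes together differed less than the V genes, at 1936 ± 8.46 and 2040 ± 21.0 FPKM, so that the ratio of summed V to summed constant level was 1.96 ± 0.0382 and 2.28 ± 0.0131.

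Genes of the joining machinery were mostly low. Of 12 V(D)J recombination genes 9 were tested, with 2 higher and 2 lower, beside 20.4% and 40.6% of all tested genes. The recombinase genes Rag1 and Rag2 were at most 0.18 FPKM in any library. Hmgb2, a DNA-bending cofactor and the most abundant of the list, was at 299 ± 3.23 and 298 ± 2.85 FPKM. Dclre1c, which encodes the hairpin-opening nuclease Artemis, was higher at 2.01 ± 0.130 and 2.96 ± 0.0902 FPKM (limma adjusted p = 0.00131), and Hmgb1 lower at 55.2 ± 1.44 and 41.3 ± 1.81 FPKM (limma adjusted p = 0.000108). Of 5 tested class switch and hypermutation genes, none was called higher and 4 were lower, beside the same shares of all genes. The mismatch repair gene Msh6 was the most abundant and had the smallest p, at 19.2 ± 0.220 and 14.9 ± 0.433 FPKM (limma adjusted p = 0.000134).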

How the data were processed

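RNA of 6 libraries, 3 per fraction, was made into stranded mRNA libraries per the labels' protocols, with groups and replicate numbers as labelled. The authors deposited 1 table per library. Its values were taken as FPKM: they have 2 decimals, their sums differ between libraries, and the submitters' processing notes name fastp, HISAT2, StringTie and GRCm38 (mm10), without versions. No header names the unit, and use of strand is not stated. FPKM are relative, so an abundant gene set lowers all others. The number of reads is unknown, so no counting intervals are given.

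For a repeated symbol the row with the highest mean was kept (70 extra rows, 1 of them Ighv1-13). The 12037 genes averaging 1 FPKM or more were compared as log2(FPKM + 1). The model was limma (3.58.1, R 4.3.3) with a trended prior variance and no covariate beside group, and p-values were adjusted by Benjamini-Hochberg, with calls at 0.05. Fold changes on that scale understate low genes. Sums, families and evenness are descriptions with no test. The fit was tested on simulated data, in which far fewer genes differed than were called here. Positions, gene types and sequences come from the GENCODE annotation and transcripts of GRCm38. These are germline sequences, so fragments over the V-D-J join or with mutations may be lost or assigned elsewhere.

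Members and lists were chosen with earlier results of these data known. Named are the 10 most abundant members per fraction, the 10 called members with the largest change in each direction and the most abundant of each family, and of other lists the most abundant and the smallest p in each direction. Alternatives were another pseudocount, filter, scaling, variance model or evenness measure, leaving out each library, and the replicate number as a block.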

Additional observations from a re-analysis of the deposited data

How the results depend on the processing

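The counts of 48 higher and 25 lower Ighv genes moved by less than 1.5 times in every alternative run. Leaving out 1 library gave 42 to 49 higher and 24 to 26 lower. With the replicate number as a block there were 46 higher and 28 lower, and 46 and 25 of these were the same genes as without it. Whether equal numbers pair libraries across the fractions is not given in the sources used here. With group means removed, same-numbered libraries correlated at −0.0533, −0.0456 and −0.0435, and none correlated best with its own number. Correlations this weak, from 3 libraries per fraction, cannot decide whether the libraries are paired. Median-ratio scaling moved the median of log2 fold changes over all 12037 genes from −0.12 to −0.02 and gave 53 higher and 21 lower Ighv genes. The log2 ratio of summed Ighv level, 0.299 as deposited, was 0.417 with median-ratio scaling, 0.223 relative to the constant genes and 0.420 with totals that leave out the neutrophil markers. The difference in effective number of genes, −1.967, was −2.382 without Ighv3-6 and −2.707 as inverse Simpson. Median-ratio scaling divides every sum of a library by the same factor, so the log2 ratios of all families rose by about the same step. That step exceeded the spread among libraries for Ighv1 (0.27 to 0.38), Ighv2 (0.10 to 0.21), Ighv3 (0.30 to 0.42), Ighv5 (−0.58 to −0.46), Ighv6 and Ighv10 (each 1.57 to 1.69), Ighv8 (0.15 to 0.26), Ighv9 (0.27 to 0.38) and Ighv14 (0.71 to 0.83). Without the most abundant member, ratios were 0.22 for Ighv1, 0.50 for Ighv3, −0.39 for Ighv5, 1.18 for Ighv6, −0.64 for Ighv7 (0.01 with it), 0.61 for Ighv8, 0.07 for Ighv9, 0.06 for Ighv10 and 0.91 for Ighv14. Ighv2-2, not called at −0.10, turned to 0.01 and 0.02 with median-ratio scaling and without the neutrophil markers. Both settings divide each library by a factor that is larger for MHCII-lo than for MHCII-hi libraries, which raises the log2 ratios of all genes. Of 37 named genes, 32 kept their call and direction in every alternative, the exceptions being Ighv1-9, Ighv2-2, Ighv4-1, Ighv7-3 and Ighv8-12. Ighv7-3 (limma adjusted p = 0.0554) was called under 5 settings, with median-ratio scaling at 0.0209, and Ighv4-1 without MHCII-lo replicate 1 (0.0470) and without MHCII-hi replicate 1 (0.0187). Unknown depth limits the precision of low genes most.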
